A study of Homo sapiens with 60 samples.

Results

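Polygala root was 1 of 8 herbal extracts given to HepG2 cells, an established line from a human liver carcinoma that still expresses many hepatocyte genes. Its 3 libraries out of 60 were found by the extract name in the sample labels, with 1 library each at 10 µg/mL (low dose), 50 µg/mL (medium dose) and 250 µg/mL (high dose). They are set against the 3 libraries of cells given the vehicle, dimethyl sulfoxide (DMSO). The other libraries came from cells given other extracts. Among those aucklandia root also had 1 library per dose and is placed beside polygala for some genes and lists, whether alike or different. All cells were treated for 24 h, the polygala extract was made with 70% ethanol, and its doses were 5-fold apart. Per the series text the default top dose was 500 µg/mL, and extracts whose 20% inhibitory concentration was lower were given at that concentration and at dilutions of it. The polygala high dose was below that default. For the vehicle, a DMSO content of 0.1% stands in the labels and 2% in the series text, and the files do not settle which applied.

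Polygala root is the dried root of Polygala tenuifolia, used in East Asian medicine as a calming and expectorant herb, and is known for triterpenoid saponins, xanthones and sugar esters. Saponins are surface-active compounds that can disturb membranes. HepG2 cells secrete many liver plasma proteins, so the endoplasmic reticulum (ER), where secreted proteins are folded, and the transcription programmes that serve it carry much of their gene expression. Immediate early genes encode transcription factors and feedback regulators that cells switch on within a short time of growth factor or stress signals, without new protein synthesis.

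Expression is given in CPM, read counts relative to the depth of each library after a correction for RNA composition. Changes are log2 ratios of a polygala library to the mean of the 3 vehicle libraries, after 1 CPM was added to each. Genes of at least 10 CPM in the vehicle mean or at the dose compared are described. With 1 library per dose there is no test and no p-value, and for scale each gene's change can be read against the spread between replicates, whose median over all genes was 0.079 on the log2 scale (pooled over 19 replicated groups). A gene is said below to have risen or fallen when it changed by at least 1.5-fold and lay outside the range of the 3 vehicle libraries. In the labels, vehicle and treated libraries have different sample codes, so the effect of polygala and a difference between sample sets cannot be told apart from the vehicle comparison alone. For that reason values at the low dose, which shares a code with the other doses, stand beside those of vehicle.

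The libraries held 23.5 to 30.2 M expected counts in vehicle, 23.6 M at the low dose, 24.1 M at the medium dose and 21.01 M at the high dose. HepG2 identity was checked with 12 markers of hepatocytes and HepG2, of which 12 reached 10 CPM. HNF4A, a hepatocyte transcription factor, was at 425, 442 and 463 CPM in vehicle, 414 CPM at the low dose, 466 CPM at the medium dose and 425 CPM at the high dose. Most of the other markers were lower at the high dose, where 10 of the 12 fell and 0 rose (median log2 change -1.56). The summed level of those markers was 24179 CPM at the high dose and 54545 to 59034 CPM in vehicle. Of 8 fibroblast markers 1 reached 10 CPM, they summed to 7.28 CPM at the high dose and 13.5 to 14.6 CPM in vehicle, and COL1A2 and LUM were at 0 in all 6 libraries. The part of such cells in the results below was not tested. Among 6 endothelial markers KDR, TEK and EMCN were at 0, and the sum was 1.56 CPM at the high dose and 5.00 to 5.93 CPM in vehicle. Of 10 leukocyte markers PTPRC, CD3E, MS4A1 and HBB were at 0, and most of the sum (569 CPM at the high dose, 1019 to 1083 CPM in vehicle) was LYZ, lysozyme. The mitochondrial share of counts was 15.2 to 18.4% in vehicle, 13.3% at the low dose, 9.94% at the medium dose and 13.8% at the high dose.

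The 3 doses differed in reach. At the low dose 4 of 9472 genes (0.0422%) were at least 2-fold higher than in vehicle and 9 (0.095%) at least 2-fold lower. At the medium dose 10 of 9562 genes (0.105%) were at least 2-fold higher and 23 (0.241%) lower. At the high dose 485 of 9814 genes (4.94%) were at least 2-fold higher and 1098 (11.2%) lower. By the 1.5-fold rule 30 genes (0.317%) rose and 18 (0.19%) fell at the low dose, and 72 (0.753%) rose and 132 (1.38%) fell at the medium dose. At the high dose 1795 (18.3%) rose and 2223 (22.7%) fell. Of the 9814 genes 479 reached the level minimum only through the high dose, so they could not be lower there, and 326 of them are among those that rose. At the 2-fold threshold 150 of them are among the 485 higher genes. Of the genes past 2-fold at the high dose, 30.6% were higher. That split depends on the scaling, because with library size alone and no composition factor 1424 genes were higher and 625 lower (69.5% higher), and the median over all genes moved to 0.33 on the log2 scale, against -0.01 here. In counts from bulk cells each value is relative to the rest of that library, and fewer cells and less RNA per cell cannot be told apart.

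Each of 51 libraries of the 6 replicated extracts, set alone against the same vehicle mean, had 11 to 59 genes past 2-fold, with a median of 22. The low and medium doses of polygala, with 13 (0.137%) and 33 (0.345%) such genes, lay within that range, and the high dose, with 1583 (16.1%), lay above it. Of the 13 genes past 2-fold at the low dose 12 were at levels inside the range of the 54 treated libraries of other extracts, as were 31 of the 33 at the medium dose. At the high dose 364 of the 485 higher genes lay above all 57 other libraries, vehicle included, and 904 of the 1098 lower genes lay below all of them. Of those 485 genes 150 reached the level minimum only through the high dose. Over all 9814 genes 25.9% lay above and 25.3% below every other library. Aucklandia was the other extract with a large response at its high dose of 280 µg/mL, where 906 genes (9.18%) were at least 2-fold higher and 1091 (11.1%) at least 2-fold lower than in the same vehicle libraries. At its medium dose 35 genes (0.366%) were at least 2-fold higher and 26 (0.272%) lower, and at its low dose 11 (0.116%) and 16 (0.168%).

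**Figure D1:**
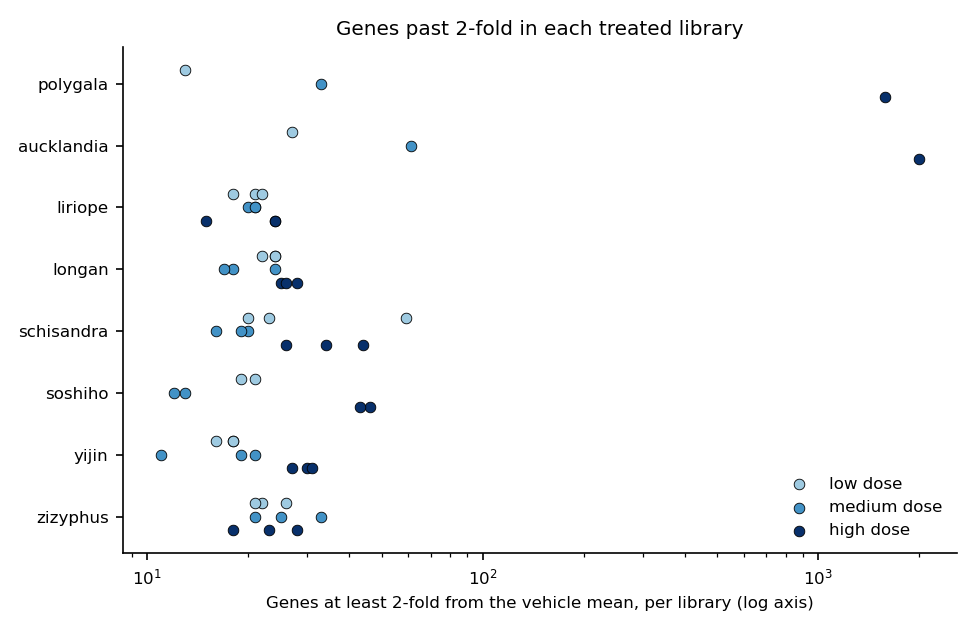
Genes at least 2-fold from the vehicle mean in each of 57 treated libraries, on a log axis, by extract (rows) and dose (shade). Polygala at its low and medium doses had 13 and 33 genes, within the 11 to 59 of the replicated extracts, and 1583 at its high dose.

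The high-dose genes were shifted little at lower doses. The 485 genes at least 2-fold higher at 250 µg/mL, which were picked for that value, had a median log2 change of 0.13 at the low dose, 0.30 at the medium dose and 1.21 at the high dose. The 1098 lower genes had medians of -0.07, -0.27 and -1.40 in the same order. Levels moved in 1 direction over the 3 doses in 81.9% of the higher and 88.9% of the lower genes, against 64% of all genes. Since both sets were picked for the high-dose value, their step from medium to high was largely fixed, and the contrast with all genes is partly built in.

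The clearest group to rise at the high dose was that of the immediate early genes and the feedback regulators of MAP kinase signalling. Of 27 listed, 19 reached the level minimum, of which 18 rose and 0 fell, where 18.3% of all genes rose and 22.7% fell by that rule. JUNB, ATF3 and 2 others of the 19 reached that minimum only through the high dose, which fixed their direction, and of the other 15 members 14 rose. Their median change was 1.38, against -0.01 over all genes, and 0.10 and 0.11 at the low and medium doses. EGR1, a zinc finger transcription factor, led them with 10.3, 10.6 and 9.64 CPM in vehicle, 19.6 CPM at the low dose, 16.7 CPM at the medium dose and 161 CPM at the high dose. All 3 doses lay above the vehicle libraries. The change at the high dose was 3.85 on the log2 scale, with a replicate SD of 0.10 for this gene and a 95% counting interval of 155.8 to 165.9 CPM.

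JUN, a subunit of the transcription factor AP-1, was at 22.9, 25.3 and 25.7 CPM in vehicle, 34.0 CPM at the low dose, 33.6 CPM at the medium dose and 139 CPM at the high dose (log2 2.45). JUNB, another AP-1 subunit, changed by 2.27, IER3, a stress-induced survival gene, by 2.20, and ATF3, a stress-induced repressor, by 2.03. Among the feedback regulators DUSP1, a phosphatase of MAP kinases, changed by 1.62 and SPRY4, an inhibitor of receptor signalling, by 2.08, both named after their values were seen. DUSP1 reached the level minimum only through the high dose, which fixed its direction. In aucklandia high EGR1 was at 151 CPM and JUN at 136 CPM, and IER3 was at 232 CPM with polygala high and 726 CPM with aucklandia high. That list had a median of 2.42 in aucklandia high. The list held SPRED2 as its only member at the level minimum that did not pass, at 0.56. FOS stayed under 10 CPM, with 4.40 CPM at the high dose and 0.32 to 0.63 CPM in vehicle.

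The promoters of 2 members that rose are shown because they hold short motifs named for the factors that bind them. Each window runs from 250 bases before to 50 bases after the RefSeq start on GRCh38.p14, printed 5′ to 3′ on the gene's strand. Capitals in EGR1 (chr5:138465229-138465528, + strand) mark 2 CArG boxes, the motif of serum response factor, and capitals in JUN (chr1:58783998-58784297, - strand) mark TGACATCA, an AP-1 and ATF motif.
EGR1: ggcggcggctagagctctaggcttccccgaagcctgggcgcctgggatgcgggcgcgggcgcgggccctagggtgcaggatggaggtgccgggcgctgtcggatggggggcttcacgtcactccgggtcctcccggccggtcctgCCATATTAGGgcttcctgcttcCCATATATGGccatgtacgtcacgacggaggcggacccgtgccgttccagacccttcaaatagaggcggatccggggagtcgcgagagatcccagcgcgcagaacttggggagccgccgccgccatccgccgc
JUN: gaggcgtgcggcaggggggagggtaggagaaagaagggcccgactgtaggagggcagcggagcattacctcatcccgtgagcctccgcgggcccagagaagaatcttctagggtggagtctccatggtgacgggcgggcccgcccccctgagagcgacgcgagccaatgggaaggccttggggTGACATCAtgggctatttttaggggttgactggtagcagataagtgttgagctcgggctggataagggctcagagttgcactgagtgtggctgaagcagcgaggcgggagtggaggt

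Both strands were searched in the RefSeq promoter windows of 20 of the 27 listed genes. A CArG box was found in 1 of the 20 (EGR1), and in 351 of all 27305 windows (1.29%). TGACATCA was found in 3 of the 20 (JUN, ATF3 and KLF6), and in 739 of all windows (2.71%). A match is a description of the letters and shows no binding.

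Among the 15 largest increases that moved in 1 direction over the doses were several secreted signals and receptors. Of those named here AREG, INHBB, CLCF1, RELT and RASD1 were under 10 CPM in the vehicle mean. They reached the level minimum only through the high dose, which fixed their direction. AREG, an epidermal growth factor receptor ligand, was at 5.11, 4.21 and 5.23 CPM in vehicle, 5.17 CPM at the low dose, 6.14 CPM at the medium dose and 40.9 CPM at the high dose (log2 2.84). The high dose alone stood apart, and the other 57 libraries reached at most 10.4 CPM. FST, the activin antagonist follistatin, was at 38.7 to 43.3 CPM in vehicle, 49.1, 55.4 and 256 CPM at the low, medium and high doses (2.59). INHBB, an activin subunit, was at 1.57 to 1.70 CPM in vehicle and 11.9 CPM at the high dose (2.29). CLCF1, a cytokine of the interleukin-6 family, was at 1.32 to 1.77 CPM in vehicle and 15.0 CPM at the high dose (2.62). JAG1, a Notch ligand, changed by 2.34. TNFRSF12A, the receptor of TWEAK, changed by 2.38. RELT, another receptor of the tumour necrosis factor family, was at 6.9 to 7.8 CPM in vehicle and 40.0 CPM at the high dose (2.31). F2RL1, a protease-activated receptor, changed by 2.26. RASD1, a small GTPase, was at 3.23 to 3.63 CPM in vehicle, 5.65, 6.49 and 57.5 CPM at the low, medium and high doses (3.73). Several of these genes were also high in aucklandia high, at 574 CPM for JAG1, 177 CPM for F2RL1 and 18.3 CPM for CLCF1. With polygala high they were at 565, 141 and 15.0 CPM. RELT was at 37.7 CPM and RASD1 at 44.1 CPM in aucklandia high. FST (102 CPM), TNFRSF12A (60.4 CPM), AREG (6.21 CPM) and INHBB (1.48 CPM) were lower there than with polygala high.

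SOX4, a transcription factor of development and of epithelial plasticity, was at 26.3, 25.9 and 27.9 CPM in vehicle, 25.9 CPM at the low dose, 36.4 CPM at the medium dose and 182 CPM at the high dose (2.73). Its level in the other 57 libraries ran from 21.2 to 37.2 CPM, with 37.2 CPM in aucklandia high. ZACN, a ligand-gated ion channel gene, was also among the 15 (2.62), but its vehicle levels of 0.04, 3.06 and 4.73 CPM were uneven and its locus overlaps other transcribed genes. PHLDA1-AS1 changed by 2.04 and lies antisense to PHLDA1, itself at 1.10. Both ZACN and PHLDA1-AS1 reached the level minimum only through the high dose. By list, 6 of 17 growth factors and receptors rose and 4 fell (median 0.39), where 18.3% of all genes rose and 22.7% fell. AREG and HBEGF, which make 2 of the 6, reached the level minimum only through the high dose, and 4 of the other 15 rose. GDF15, a stress cytokine, was at 86.8, 104 and 97.0 CPM in vehicle, 135, 129 and 571 CPM at the low, medium and high doses (2.56), against 829 CPM in aucklandia high. HBEGF, another ligand of the epidermal growth factor receptor, changed by 2.11. The receptor genes EGFR (-0.75) and ERBB2 (-0.85), named after their values were seen, fell.

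Of 17 genes that respond to YAP or transforming growth factor beta 7 rose and 1 fell (median 0.46). CCN1, a matricellular protein, changed by 2.06, THBS1, thrombospondin, by 1.40, CCN2 by 1.33 and ID1, an inhibitor of DNA binding, by 1.303. THBS1 was at 855 CPM with polygala high and 130 CPM with aucklandia high, against 311 to 330 CPM in vehicle. For that gene the extracts lay on opposite sides of vehicle. CCN1 was at 51.0 CPM with polygala high and 186 CPM with aucklandia high, while CCN2 (-0.13) and ID1 (-0.15) were near vehicle in aucklandia high. The median of that list was 0.84 in aucklandia high. Among 14 genes of the glucose and insulin response 4 rose and 2 fell (median 0.39), where 18.3% of all genes rose and 22.7% fell. Of the 4 that rose ARRDC4 reached the level minimum only through the high dose. IGFBP1, a secreted binding protein of insulin-like growth factors, was at 23.5, 25.5 and 29.6 CPM in vehicle, 42.4 CPM at the low dose, 27.1 CPM at the medium dose and 128 CPM at the high dose (2.24). TXNIP (1.16) and ARRDC4 (2.01), arrestin-fold genes that respond to glucose, and TRIB1 (1.67) rose, while PKLR, liver pyruvate kinase, fell to 2.10 CPM at the high dose, against 20.2, 22.8 and 23.6 CPM in vehicle (-2.90).

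**Figure D2:**
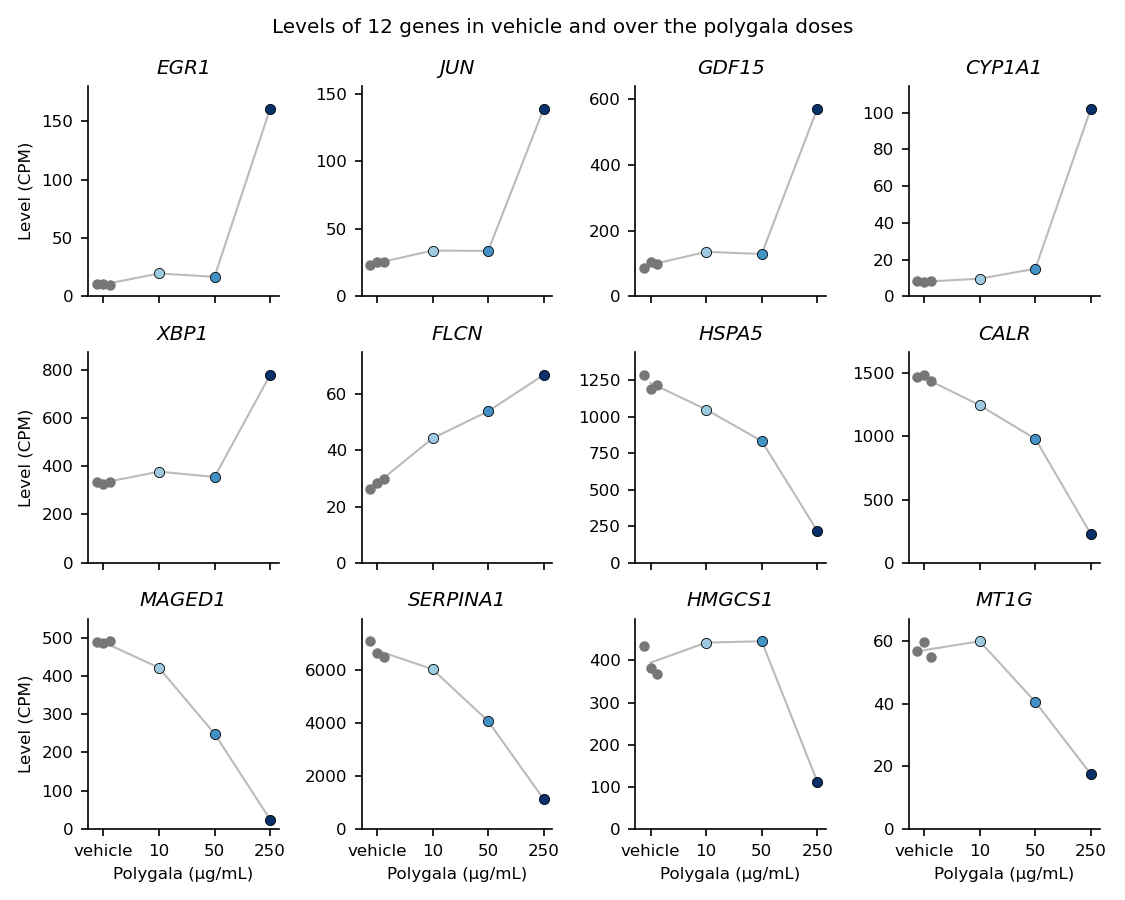
CPM of 12 genes in 3 vehicle libraries (grey points) and in 1 polygala library at 10, 50 and 250 µg/mL (blue points), with a line through the vehicle mean and the doses and each axis starting at 0. EGR1, JUN, GDF15, CYP1A1 and XBP1 are far higher at the high dose than at any other, FLCN is higher at every dose, and MAGED1, HSPA5, CALR and SERPINA1 are lower at each higher dose.

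CYP1A1, a cytochrome P450 induced through the aryl hydrocarbon receptor (AhR), lies on chromosome 15 at 74719542 to 74725610 (GRCh38, GENCODE 29). It was at 8.15, 7.56 and 8.28 CPM in vehicle, 9.61 CPM at the low dose, 15.1 CPM at the medium dose and 102 CPM at the high dose. All 3 doses were above vehicle, and the change at the high dose was 3.52. Of 57 other libraries 53 were lower and 4 higher, up to 931 CPM, and aucklandia high had 18.3 CPM. Of 4 AhR targets at the level minimum, which CYP1A1 reached only through the high dose, 2 rose, the other being TIPARP (0.75), and NQO1, also an NRF2 target, fell, both named after their values were seen. Among all genes 18.3% rose and 22.7% fell. The CYP1A1 window (chr15:74725479-74725778, - strand, GRCh38.p14) is printed because that gene was graded over the doses, with capitals for GCGTG, the core of the AhR element.
CYP1A1: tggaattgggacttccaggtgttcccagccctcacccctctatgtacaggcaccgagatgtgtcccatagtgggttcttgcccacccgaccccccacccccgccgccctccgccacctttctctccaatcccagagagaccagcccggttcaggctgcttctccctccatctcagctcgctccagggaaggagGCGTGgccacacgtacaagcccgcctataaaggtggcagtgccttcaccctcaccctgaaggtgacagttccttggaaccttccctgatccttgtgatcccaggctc

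GCGTG, searched on both strands, was in 6 of 8 matched AhR targets and in 36.3% of all windows, so it is common in windows of this length.

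Of 23 genes of the unfolded protein response, the programme that adjusts ER folding capacity, 16 fell and 2 rose at the high dose (median -0.98), and the median was -0.14 and -0.31 at the low and medium doses. Among all genes 22.7% fell and 18.3% rose at the high dose. HSPA5, the main ER chaperone BiP, was at 1286, 1187 and 1219 CPM in vehicle, 1049 CPM at the low dose, 833 CPM at the medium dose and 218 CPM at the high dose (-2.49). Each dose was lower than the one before it, and each was below all 3 vehicle libraries. CALR, the lectin chaperone calreticulin, was at 1437 to 1486 CPM in vehicle, 1245, 980 and 225 CPM at the low, medium and high doses (-2.69). The disulfide isomerases PDIA4 (-2.73) and PDIA3 (-2.23) and the chaperones HSP90B1 (-2.17) and CANX (-1.28), the last pair named after their values were seen, fell as well. SEC24D, a coat protein of vesicles that leave the ER, changed by -2.85, and NUCB2, a calcium-binding protein of the secretory pathway, by -3.21.

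The 2 members that rose (8.7%, against 18.3% of all genes) have roles upstream in the same response. ERN1, the ER stress sensor IRE1, was at 14.3 to 14.6 CPM in vehicle, 15.4, 16.4 and 43.1 CPM at the low, medium and high doses (1.52). XBP1, the transcription factor whose RNA is spliced by IRE1, was at 335, 326 and 335 CPM in vehicle, 378, 356 and 779 CPM at the low, medium and high doses (1.23). Both were named after their values were seen. In aucklandia high, HSPA5 was at 1944 CPM and XBP1 at 128 CPM, so each lay on the side of vehicle opposite to its polygala value, and the list median was -0.10.

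The windows of HSPA5 and CALR, which fell, and of XBP1, which rose, are printed because each holds the ER stress response element (CCAAT and CCACG with 9 bases of any kind between them), shown in capitals (on the opposite strand in CALR). The windows are chr9:125241294-125241593 (- strand), chr19:12938359-12938658 (+ strand) and chr22:28800520-28800819 (- strand), from RefSeq on GRCh38.p14.
HSPA5: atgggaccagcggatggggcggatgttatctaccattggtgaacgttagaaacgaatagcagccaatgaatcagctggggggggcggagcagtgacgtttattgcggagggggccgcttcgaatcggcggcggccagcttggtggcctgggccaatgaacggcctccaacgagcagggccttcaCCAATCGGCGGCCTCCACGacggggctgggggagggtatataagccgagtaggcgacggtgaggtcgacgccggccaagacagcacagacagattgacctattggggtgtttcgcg
CALR: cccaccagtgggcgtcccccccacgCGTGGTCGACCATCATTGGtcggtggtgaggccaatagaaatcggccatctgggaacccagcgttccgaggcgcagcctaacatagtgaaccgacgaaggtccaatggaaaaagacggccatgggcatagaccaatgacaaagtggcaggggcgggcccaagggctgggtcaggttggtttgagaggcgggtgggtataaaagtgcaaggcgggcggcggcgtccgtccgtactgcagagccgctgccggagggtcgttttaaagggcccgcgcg
XBP1: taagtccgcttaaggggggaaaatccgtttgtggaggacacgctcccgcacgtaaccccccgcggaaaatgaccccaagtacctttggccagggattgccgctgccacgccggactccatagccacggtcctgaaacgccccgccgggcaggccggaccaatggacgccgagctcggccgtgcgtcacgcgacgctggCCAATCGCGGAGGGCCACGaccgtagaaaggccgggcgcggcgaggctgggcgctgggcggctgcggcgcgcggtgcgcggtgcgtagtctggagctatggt

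The element was in 6 of 22 matched members of the list (CANX, HSPA5, HSP90B1, CALR, XBP1 and CRELD2) and in 22 of 27305 windows (0.0806%). Of those 22 genes 11 reached the level minimum, and at the high dose 7 were at least 1.5-fold lower and 1, XBP1, was at least 1.5-fold higher (median -0.87). ALG12 (0.06) and EIF2A (-0.05), which hold the same letters, were near vehicle.

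Liver secretory products fell as a group. Of 20 coagulation and complement genes 17 fell and 0 rose (median -1.73), with medians of -0.06 and -0.32 at the low and medium doses. C3, the central complement component, was at 2815, 2822 and 2866 CPM in vehicle, 2468 CPM at the low dose, 1860 CPM at the medium dose and 418 CPM at the high dose (-2.76). SERPIND1, heparin cofactor, changed by -2.64, CFB, complement factor B, by -2.50, and SERPINC1, antithrombin, by -2.45. Of 16 acute phase genes 12 fell and 0 rose (median -1.46), where 22.7% of all genes fell and 18.3% rose. SERPINA1, alpha-1-antitrypsin, was at 6468 to 7065 CPM in vehicle, 6013, 4062 and 1124 CPM at the low, medium and high doses (-2.58). ITIH3 changed by -2.07, A2M, alpha-2-macroglobulin, by -1.99 and the haem carrier HPX by -1.87.

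Of 28 hepatocyte identity genes 17 fell and 4 (14.3%) rose (median -1.16), where 22.7% of all genes fell and 18.3% rose. VTN, the adhesive plasma protein vitronectin, fell to 13.8 CPM at the high dose, against 121, 125 and 133 CPM in vehicle (-3.10). AFP, alpha-fetoprotein, changed by -1.80, AHSG, fetuin, by -1.78 and APOH by -1.80. ALB, albumin, was at 7345, 6739 and 6810 CPM in vehicle, 7415 CPM at the low dose, 6231 CPM at the medium dose and 3441 CPM at the high dose (-1.02). The 4 that rose were the transcription factor genes FOXA3 (0.78), ONECUT1 (0.70), CEBPA (0.68) and NR0B2 (0.59), named after their values were seen. CEBPA was at 117, 152 and 146 CPM in vehicle, 141, 181 and 222 CPM at the low, medium and high doses. In aucklandia high those 4 were at -0.45, -2.15, -1.26 and -1.91.

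Matrix and cytoskeleton genes fell too. Of 18 extracellular matrix genes 16 fell and 0 rose (median -1.25). SPARC, a collagen-binding matrix protein, was at 164, 155 and 150 CPM in vehicle, 134, 97.0 and 16.98 CPM at the low, medium and high doses (-3.13). HSPG2, perlecan, changed by -2.70 and FN1, fibronectin, by -1.95, with 3618 CPM at the high dose and 13576 to 14232 CPM in vehicle. Of 34 cytoskeleton genes 24 fell and 1 rose (median -1.04), where 22.7% of all genes fell and 18.3% rose. The 1 that rose reached the level minimum only through the high dose, which fixed its direction. At the medium dose 7 cytoskeleton genes had fallen, where 1.38% of all genes fell. MYH9, non-muscle myosin, was at 794, 863 and 868 CPM in vehicle, 720, 478 and 165 CPM at the low, medium and high doses (-2.35). KRT8, a keratin, changed by -2.28 and GSN, the actin-severing protein gelsolin, by -3.12.

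MAGED1, a melanoma antigen family gene on the X chromosome at 51803007 to 51902357 (GRCh38), had the largest decrease that was graded over the doses, apart from 2 shared loci given below. It was at 488, 486 and 490 CPM in vehicle, 421 CPM at the low dose, 249 CPM at the medium dose and 24.9 CPM at the high dose (-4.24). The other 57 libraries lay between 98.0 and 490 CPM, and the 95% counting interval at the high dose was 23.0 to 27.0 CPM. MAGED2 changed by -3.51 and MAGED4, which has a near copy, by -3.01, with aucklandia high at -2.30 for MAGED1, -1.04 for MAGED2 and -2.35 for MAGED4. ANXA6, a membrane-binding annexin (-2.98), and ALDH6A1, a mitochondrial aldehyde dehydrogenase (-2.88), were also among the 15 largest decreases. ATP6V1G2-DDX39B, a read-through transcript, was at 0 counts at the high dose, against 63.5, 53.6 and 64.1 CPM in vehicle. It shares exons with DDX39B, itself at 603 CPM at the high dose and 353 to 375 CPM in vehicle, so the reads could be split between the loci. EIF3CL, a near copy of EIF3C, had uneven vehicle levels (167, 11.97 and 19.9 CPM) and is likewise uncertain, while EIF3C changed by -1.75.

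**Figure D3:**
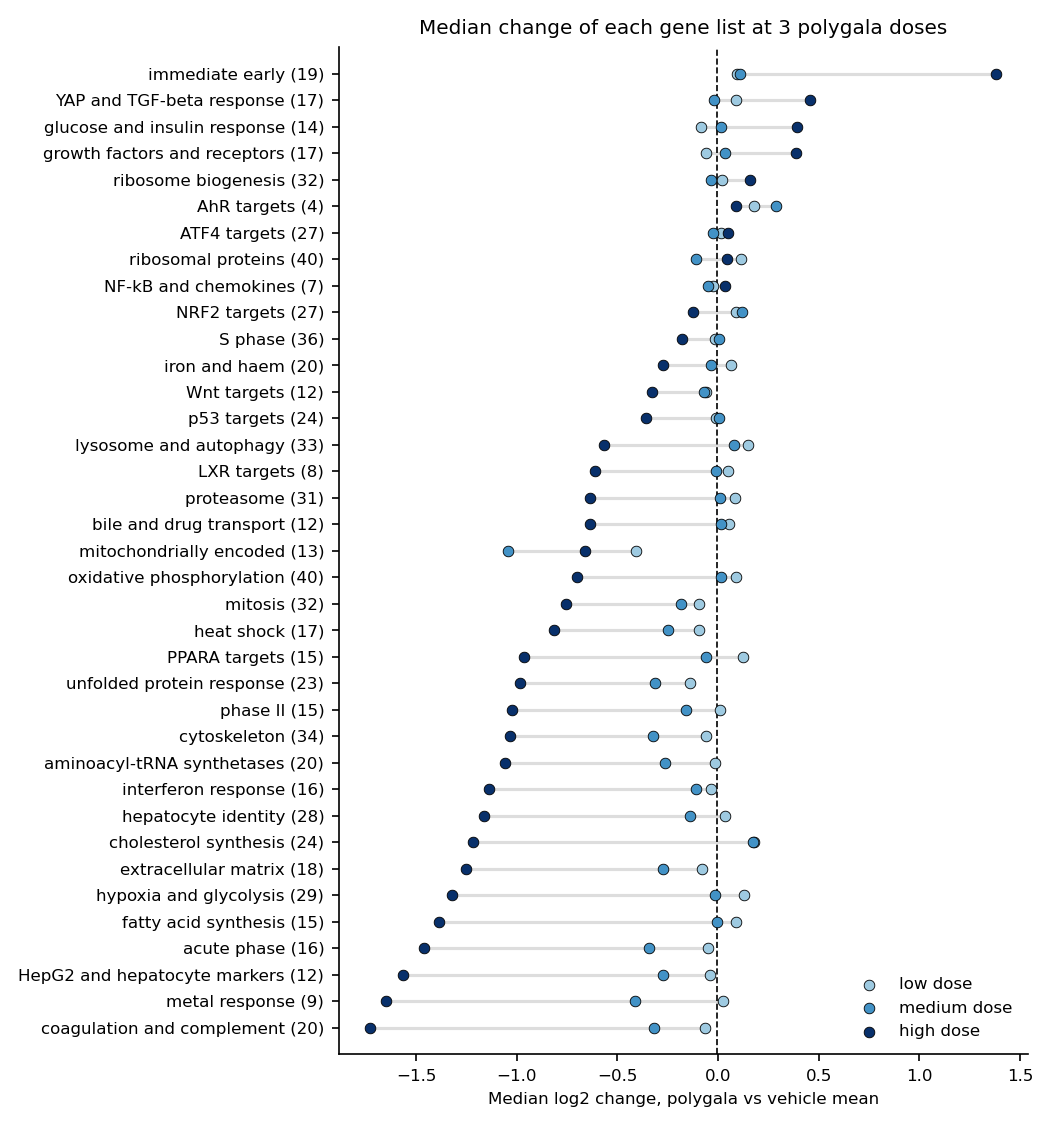
Median log2 change of each gene list with at least 3 members at the level minimum (number in brackets) at 3 polygala doses, with a dashed line at the median of all genes at the high dose. Immediate early genes lie highest at 1.38 and coagulation and complement genes lowest at -1.73 at the high dose, while low-dose medians lie between -0.14 and 0.18 except for the mitochondrially encoded genes at -0.41.

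The lists of protein synthesis genes did not move alike. Of 20 cytosolic aminoacyl-tRNA synthetases, the enzymes that load amino acids onto tRNA, 18 fell and 0 rose (median -1.06). EPRS1, the glutamyl-prolyl synthetase, was at 203, 189 and 186 CPM in vehicle, 172 CPM at the low dose, 125 CPM at the medium dose and 21.96 CPM at the high dose (-3.08). WARS1 changed by -2.09, AARS1 by -1.82 and VARS1 by -1.45. In aucklandia high EPRS1 was at 211 CPM and the list median was -0.12. Of 40 ribosomal protein genes 3 rose and 0 fell (median 0.04), and of 32 ribosome biogenesis genes 8 rose and 4 fell (median 0.16). Over all genes 18.3% rose and 22.7% fell. The summed level of the biogenesis genes was 5164 CPM at the high dose and 6363 to 6663 CPM in vehicle. NOP16 (1.23), BYSL (1.16) and POLR1C (1.13), a subunit of RNA polymerases I and III, led the biogenesis genes.

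Of 27 targets of ATF4, the transcription factor of amino acid stress, 7 rose and 8 fell (median 0.05), near the shares of all genes that rose (18.3%) and fell (22.7%). Several that fell make serine, glycine or asparagine. PHGDH, the first enzyme of serine synthesis, was at 136, 152 and 146 CPM in vehicle, 136, 102 and 18.5 CPM at the low, medium and high doses (-2.91). ASNS, asparagine synthetase, was at 7.12 CPM with polygala high and 162 CPM with aucklandia high, against 33.5 to 34.1 CPM in vehicle. PPP1R15A, which restarts translation after stress (1.55), ATF3 and GDF15 were among those that rose. DDIT3, the stress factor CHOP, was at 6.00 to 6.27 CPM in vehicle, 9.17, 7.34 and 9.29 CPM at the low, medium and high doses, which is under the level minimum. ASNS and PPP1R15A were named after their values were seen.

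Protein quality control genes fell. Of 17 heat shock genes 12 fell and 0 rose (median -0.81), and of 31 proteasome genes 16 fell and 0 rose (median -0.64). By the same rule 22.7% of all genes fell and 18.3% rose. HSP90AA1, a cytosolic chaperone, was at 1973, 1879 and 1725 CPM in vehicle, 1672, 1347 and 327 CPM at the low, medium and high doses (-2.51). HSPA1A, the inducible HSP70, was at 33.9 CPM with polygala high and 3032 CPM with aucklandia high, against 127 to 140 CPM in vehicle. The list medians of aucklandia were 1.21 for heat shock and 0.48 for the proteasome, with the opposite sign to those of polygala. PSMD1, a subunit of the proteasome base, changed by -1.35 and PSMC4 by -1.25.

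Of 27 targets of NRF2, the factor of electrophile and oxidant defence, 7 rose and 10 fell, where 18.3% of all genes rose and 22.7% fell. The median was -0.12 with the composition factor and 0.21 with library size alone. GCLC, the catalytic subunit that limits glutathione synthesis, was at 83.7, 78.0 and 74.8 CPM in vehicle, 77.8, 84.6 and 198 CPM at the low, medium and high doses (1.32). SRXN1, sulfiredoxin (1.26), TXNRD1, thioredoxin reductase (1.24), and ABCC2, an exporter (1.17), rose too. The enzymes of the pentose phosphate pathway in the list that are named here, TKT (-1.91), PGD (-1.59) and TALDO1 (-1.55), fell, as did NQO1 (-1.36). HMOX1, haem oxygenase, was at 52.0, 58.7 and 57.9 CPM in vehicle, 58.8 CPM at the low dose, 59.0 CPM at the medium dose and 19.4 CPM at the high dose (-1.49). It was the lowest of all 60 libraries, while aucklandia high, at 708 CPM, was the highest. Apart from HMOX1 these members were named after their values were seen.

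**Figure D4:**
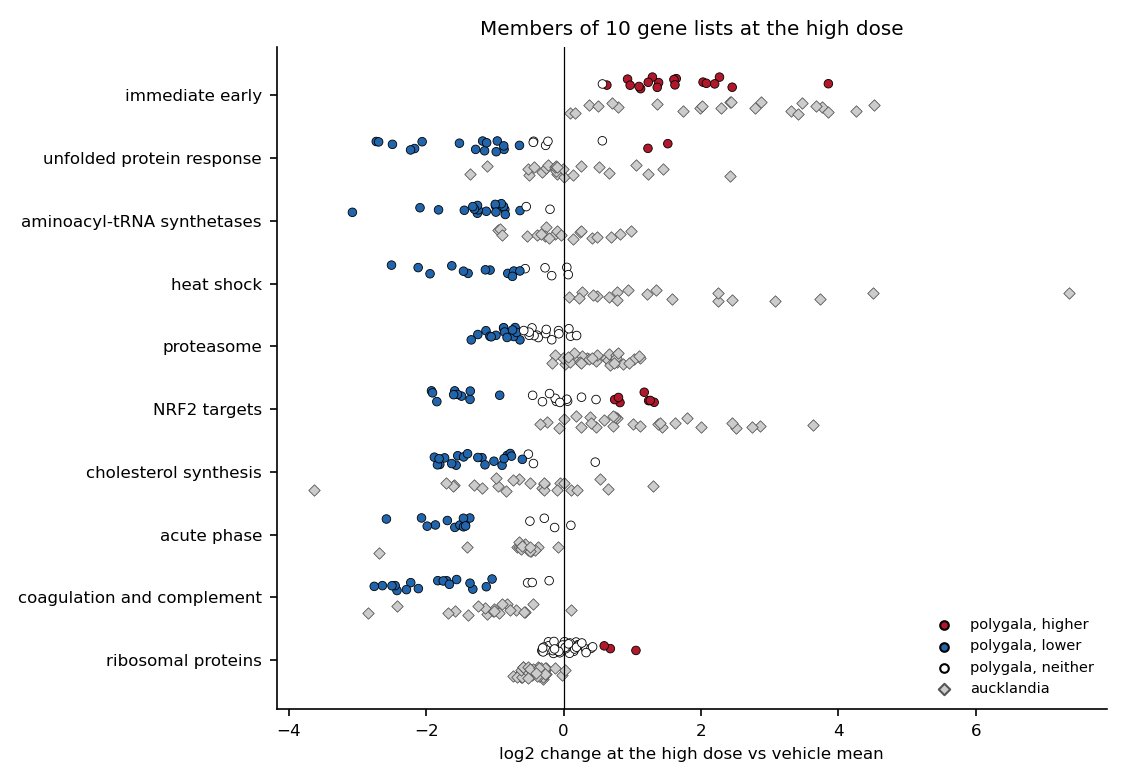
Log2 change against the vehicle mean of each member of 10 gene lists at the high dose of polygala (circles, red for risen, blue for fallen, white for neither) and of aucklandia (grey diamonds). Heat shock and proteasome members lie mostly below 0 with polygala and above 0 with aucklandia, and immediate early genes lie above 0 with both. Points are spread vertically at random for clarity, and both extracts share the vehicle libraries.

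Lipid synthesis genes fell at the high dose, and 0 of them had passed the 1.5-fold rule at the lower doses. Of 24 cholesterol synthesis genes 21 fell and 0 rose (median -1.22), with medians of 0.18 and 0.17 at the low and medium doses. HMGCS1, an early enzyme of the pathway, was at 434, 382 and 368 CPM in vehicle, 442 CPM at the low dose, 446 CPM at the medium dose and 112 CPM at the high dose (-1.80). FDFT1, squalene synthase, changed by -1.88, DHCR7 by -1.84 and ACAT2 by -1.82. Of 15 fatty acid synthesis genes 12 fell and 0 rose (median -1.39), where 22.7% of all genes fell and 18.3% rose. FASN, fatty acid synthase, was at 2887, 3195 and 3173 CPM in vehicle, 2840, 2247 and 702 CPM at the low, medium and high doses (-2.14). FADS2, a desaturase, changed by -2.56, ACLY, which makes cytosolic acetyl-CoA, by -2.43 and ACSS2 by -2.35.

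Genes of fatty acid use and of energy metabolism fell as well. Of 15 PPARA targets 11 fell and 0 rose (median -0.96), among them HADHA (-2.48) and HADHB (-1.71), the subunits of the mitochondrial trifunctional protein. Of 29 hypoxia and glycolysis genes 18 fell and 5 rose (median -1.32), where 22.7% of all genes fell and 18.3% rose. Among the 27 members at the level minimum in vehicle 3 rose (11.1%). The fallers were mainly enzymes of glycolysis, such as ALDOC (-2.40), PKM (-2.19), ALDOA (-1.90) and PGK1 (-1.86), and the risers were VEGFA (0.68), SLC16A3 (0.69), EGLN1 (0.77), ADM (0.92) and MXI1 (1.02), named after their values were seen, of which ADM and MXI1 reached the level minimum only through the high dose. Of 40 nuclear genes of oxidative phosphorylation 23 fell and 0 rose (median -0.70), with SDHA at -1.71 and UQCRC1 at -1.61.

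Mitochondrially encoded genes followed another order. Of 13, 2 had fallen at the low dose, 13 at the medium dose and 9 at the high dose, with medians of -0.41, -1.04 and -0.66. MT-ND1, a subunit of complex I, was at 14913, 10527 and 11900 CPM in vehicle, 9164 CPM at the low dose, 4289 CPM at the medium dose and 5688 CPM at the high dose. Vehicle stood high in this respect, since the mitochondrial share of counts was 9.50 to 15.9% in the 54 treated libraries of other extracts, with a median of 11.1%. The 9.94% of the medium dose lay within that range, and the part of the vehicle libraries in the result was not tested.

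Metallothionein genes, whose products bind zinc and copper, fell at the high dose. Of 9 metal response genes 5 fell and 2 rose there (median -1.65), and 2 of them, MT1X and MT2A, had fallen at the medium dose. Among all genes 22.7% fell and 18.3% rose at the high dose, and 1.38% fell at the medium dose. MT2A was at 223, 194 and 211 CPM in vehicle, 214 CPM at the low dose, 127 CPM at the medium dose and 64.7 CPM at the high dose (-1.68). MT1F, MT1X, MT1E and MT1G changed by -1.74, -1.70, -1.67 and -1.65. These genes are close copies, so their reads could be split between copies. MT1G was at 17.5 CPM with polygala high and 6.34 CPM with aucklandia high, and 7 of 57 other libraries were lower than polygala high. The MT2A window (chr16:56608334-56608633, + strand, RefSeq GRCh38.p14) is printed with its 8 matches to TGCNCNC, the core of the metal response element, in capitals.
MT2A: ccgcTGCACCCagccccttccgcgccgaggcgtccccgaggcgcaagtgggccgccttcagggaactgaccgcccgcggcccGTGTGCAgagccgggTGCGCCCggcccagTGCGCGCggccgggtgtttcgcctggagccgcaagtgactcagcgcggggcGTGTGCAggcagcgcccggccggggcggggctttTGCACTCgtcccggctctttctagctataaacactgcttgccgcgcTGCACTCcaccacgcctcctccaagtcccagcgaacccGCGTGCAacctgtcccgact

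TGCNCNC, on either strand, was in 5 of 7 matched list members and in 55.2% of all windows. The genes that rose were MTF1, the metal-sensing transcription factor (0.86), and the zinc importer SLC39A10 (0.63), both named after their values were seen.

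Mitosis genes fell more than S phase genes did. Of 32 mitosis genes 21 fell and 0 rose (median -0.76), with TOP2A at 626, 583 and 573 CPM in vehicle, 542, 467 and 144 CPM at the low, medium and high doses (-2.03), HMMR at -1.85, KIF20A at -1.75 and CDC20 at -1.63. Of 36 S phase genes 11 fell and 5 rose, where 22.7% of all genes fell and 18.3% rose. Their median was -0.18 and turned to 0.15 with library size alone. The helicase subunits MCM2 (-1.74) and MCM5 (-1.71) and RRM1 (-1.71), which serves nucleotide supply, fell. CCNE2 (1.38), which reached the level minimum only through the high dose, and CDC25A (1.01), named after their values were seen, act at entry into S phase and rose. Aucklandia high had a median of -1.03 in that list. CDKN1A, the cell cycle inhibitor p21, was at 91.7, 98.6 and 92.6 CPM in vehicle, 93.7, 83.5 and 82.6 CPM at the low, medium and high doses, against 359 CPM in aucklandia high. Of 24 p53 targets 5 rose and 7 fell, near the shares of all genes, with a median of -0.36 that was -0.04 with library size alone.

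Among 33 lysosome and autophagy genes 6 rose (18.2%) and 16 fell (median -0.57), where 18.3% of all genes rose and 22.7% fell. Lysosomal hydrolases such as LIPA, the acid lipase (-2.63), GAA (-1.96) and CTSD, cathepsin D (-1.70), fell. FLCN, folliculin, which controls nutrient signalling at the lysosome, rose at every dose and was chosen after its values were seen. It was at 26.4, 28.5 and 29.8 CPM in vehicle, 44.3 CPM at the low dose, 54.0 CPM at the medium dose and 66.9 CPM at the high dose (0.63, 0.91 and 1.22), and at 27.7 to 73.1 CPM in the 54 treated libraries of other extracts, with a median of 35.3 CPM. Its partner FNIP1 was at 0.32, 0.53 and 1.11, and the autophagy receptor SQSTM1 at 0.47, 0.60 and 0.80. Of 16 interferon response genes 13 fell and 0 rose (median -1.14), with OAS3, an antiviral sensor, at -2.20 and HLA-C at -1.87. Of 15 phase II detoxification genes 12 fell and 0 rose (median -1.03), with the sulfotransferase SULT1A1 at -1.99 and GSTA1 at -1.76.

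Over the 37 lists with at least 3 members at the level minimum, the median at the high dose stood at least 0.15 above that of all genes in 5 and at least 0.15 below it in 27. The lists not described above were also mostly lower. Of 12 transporters of bile and drugs 6 fell and 1 rose (median -0.64), and of 8 LXR targets 4 fell (-0.61). Of 12 Wnt targets 4 fell (-0.33), and of 20 iron and haem genes 7 fell and 4 rose (-0.27). Over all genes 22.7% fell and 18.3% rose. With library size alone the LXR, Wnt and iron medians were -0.06, -0.01 and 0.05. Of 7 NF-kB and chemokine genes 1 rose and 1 fell. The riser, CCL20, a chemokine named after its value was seen, was at 12.1 to 12.4 CPM in vehicle, 15.7, 13.8 and 73.9 CPM at the low, medium and high doses, and 2.52 CPM in aucklandia high.

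At the low and medium doses the largest changes included several loci that share reads with a copy or neighbour. SLX1A rose to 53.3 and 53.4 CPM at the low and medium doses, against 8.85, 15.8 and 13.5 CPM in vehicle, and its copy SLX1B fell to 13.9 CPM at the low dose, against 40.4 to 50.0 CPM in vehicle. In the 54 treated libraries of other extracts SLX1A ran from 29.8 to 95.7 CPM, so the treated libraries in general stood apart from vehicle at this locus. RN7SL1 and RN7SL2, near-identical RNAs of the signal recognition particle, fell at the low dose by 2.08 and 2.38 on the log2 scale. Against the low dose in place of vehicle their high-dose changes were 0.65 and 1.13. TUBA1B-AS1, antisense to TUBA1B, was at 157, 32.7 and 71.7 CPM in vehicle and 121, 0.12 and 0.70 CPM at the low, medium and high doses. In the 54 treated libraries of other extracts it ran from 0 to 137 CPM (aucklandia high), with a median of 0.23 CPM.

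BRI3, which overlaps BAIAP2L1 on the opposite strand, was at 23.3, 28.6 and 29.4 CPM in vehicle, 55.2, 50.1 and 73.0 CPM at the low, medium and high doses, and 30.3 to 58.6 CPM in the 54 treated libraries of other extracts. MALAT1, a nuclear long non-coding RNA, was at 286, 261 and 254 CPM in vehicle, 345, 572 and 551 CPM at the low, medium and high doses, and 232 to 924 CPM in those 54.

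Change at the high dose also varied with gene structure. The number of exons was taken from the longest coding transcript of each gene in GENCODE 29, for 9457 protein-coding genes. Genes of 1 exon had a median log2 change of 0.32 (n = 149), genes of 2 to 5 exons 0.22 (n = 2225), of 6 to 10 exons -0.01 (n = 2838), of 11 to 20 exons -0.10 (n = 2881) and of 21 or more exons -0.24 (n = 1364). Levels in vehicle moved with it, since genes at 100 CPM or more in vehicle had a median of -0.40 and genes of 30 to 100 CPM a median of -0.03. Of the 3519 genes under 30 CPM, whose median was 0.20, 387 reached the level minimum only through the high dose, which raises that value. They made 195 of 1164 such genes with 1 to 5 exons and 13 of 285 with 21 or more, so the exon medians in that class and over all levels are touched unequally. Within genes of 30 to 100 CPM, where none entered that way, the medians ran from 0.10 for 1 to 5 exons over -0.01 and -0.07 to -0.15 for 21 or more. Within genes of 100 CPM or more, they ran from -0.23 for 1 to 5 exons over -0.32 and -0.46 to -0.59 for 21 or more. For aucklandia high, the same bins of that level had medians of -0.40, -0.26, -0.22 and -0.31, and at the medium dose of polygala they were -0.10, -0.08, -0.11 and -0.15. The quartiles of neighbouring bins overlap, and genes are not independent replicates.

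**Figure D5:**
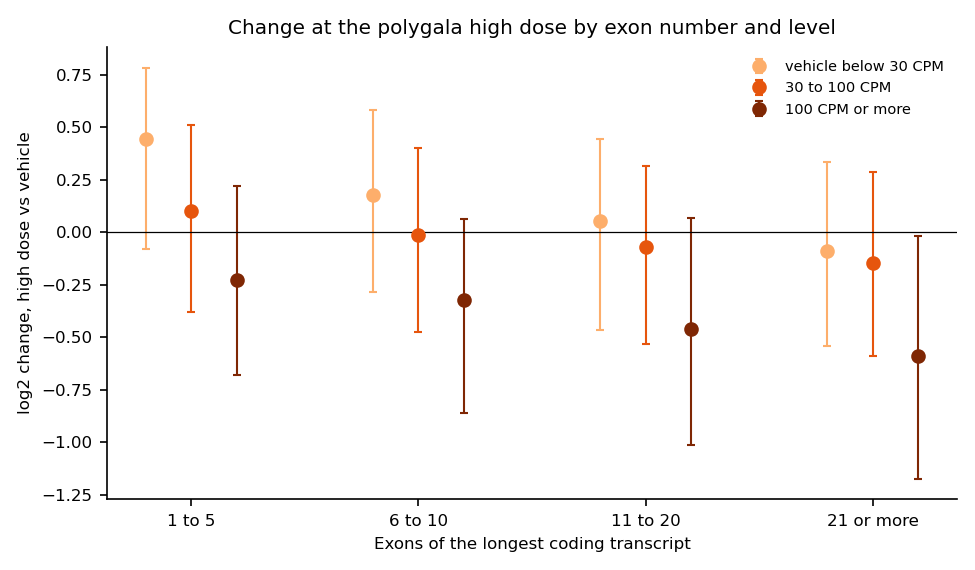
Median log2 change (points) and quartiles (bars) at the polygala high dose by number of exons, for genes under 30 CPM, of 30 to 100 CPM and of 100 CPM or more in vehicle. Medians are lower with more exons, from 0.10 to -0.15 in the middle class and from -0.23 to -0.59 in the highest, and the lowest class (0.44 to -0.09) holds genes that entered only through their high-dose level.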

How the data were processed

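RNA of HepG2 cells was sequenced as 100 bp read pairs from samples with an RNA integrity number above 7. Per the submitters' processing notes, FastQC 0.11.9, Trim Galore 0.6.5, STAR 2.7.3a and RSEM 1.3.3 were used with hg38. The annotation release is not given in the sources used here. The authors deposited expected counts for 60675 gene IDs and 60 libraries, and 10.4% of the values had a fraction. They were rounded. CPM was computed with TMM factors from edgeR 4.0.16 (R 4.3.3) over 18003 genes, which ranged from 0.893 to 0.936 in vehicle and were 0.976, 1.07 and 1.16 at the low, medium and high doses.

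Log2 ratios used a pseudocount of 1 CPM and a minimum of 10 CPM. The labels do not say whether the 3 vehicle libraries came from separate cultures, so their spread may be technical, and 0 of 51 replicate pairs were identical. Counting intervals are exact Poisson intervals and cover counting error only. The named genes were the 15 largest changes in each direction at the high dose whose levels were monotonic with dose, the 5 largest at each lower dose, up to 4 per list whose median stood apart, and always CYP1A1, HMOX1, HMGCS1, MT1G, IGFBP1, ALB, CDKN1A, DDIT3 and ATF3. The members and the 42 lists were chosen with earlier results of these data known. SOD2, DDX58 and H3C2 were not analysed here. Gene IDs were matched to GENCODE 29 (57055) and promoters to RefSeq on GRCh38.p14. The calculation was tested on simulated data. Alternatives were other scalings (DESeq2 1.42.0 size factors, library size alone), pseudocounts, level minimums and folds, each vehicle library left out, and the low dose in place of vehicle. Some genes of the lists are counted but not reported by name here.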

Additional observations from a re-analysis of the deposited data

How the results depend on the processing

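No paired analysis was possible because polygala had 1 library at each dose. With 1 library a dose, each value has no replicate check, and depth limits genes of low level most. At the 2-fold threshold the low, medium and high doses had 4, 10 and 485 genes higher and 9, 23 and 1098 lower. Scaling by library size alone gave 7, 23 and 1424 genes higher, and 12 lower at the medium dose and 625 at the high dose. A minimum of 5 CPM gave 7 higher at the low dose and 16 at the medium dose. A minimum of 1 CPM, and no minimum, gave 13 higher and 24 lower at the low dose and 30 higher and 53 lower at the medium dose. A pseudocount of 5 CPM left 2, 4 and 294 genes higher. A threshold of 1.5-fold alone gave 30, 72 and 1795 genes higher and 19, 133 and 2223 lower. Without 1 vehicle library at a time, the high dose had 489 to 506 genes higher and 1106 to 1112 lower, the medium dose 7 to 11 and 17 to 26, and the low dose 4 to 5 and 9 to 10. Lists higher than all genes numbered 4 to 5 and lists lower 26 to 27 under the same omissions. With the low dose in place of vehicle, 380 genes were higher and 1034 lower at the high dose. That setting reversed RN7SL1 (0.65) and RN7SL2 (1.13), which were lower against vehicle, and SLX1A (-0.57) and SLX1A-SULT1A3 (-0.063), which were higher, and the cause was not tested. Of 169 named genes past 1.5-fold at the high dose, 153 stayed past it under all 8 alternatives run on single genes.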

Other observations

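Some gene families outside the lists, chosen after their values were seen, also moved at the high dose. There 4.94% of all genes were at least 2-fold higher and 11.2% at least 2-fold lower than in vehicle. Of 19 SERPIN genes, which encode protease inhibitors and carriers, 17 were at least 2-fold lower and 0 at least 2-fold higher than in vehicle, with a median log2 change of -0.06 at the low dose, -0.40 at the medium dose and -2.14 at the high dose. The same genes had a median of -0.52 in aucklandia high. Of 13 ALDH genes, aldehyde dehydrogenases, 10 were at least 2-fold lower, and the median was -1.75 with polygala and -1.48 with aucklandia. Zinc finger genes of the ZNF family lay on the other side, since 42 of 259 were at least 2-fold higher and 1 at least 2-fold lower, with a median of 0.62 with polygala and 0.26 with aucklandia. Of the 259, 71 reached the level minimum only through the high dose, 16 of the 42 among them.

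Non-coding classes held many genes that reached the level minimum only through the high dose, which raises their medians, namely 16 of 54 lincRNA genes, 24 of 72 antisense genes and 4 of 40 processed transcripts. The 54 lincRNA genes at the level minimum had a median of 0.63 with polygala high and -0.05 with aucklandia high, and 14 of them were at least 2-fold higher and 2 lower than in vehicle. The high dose alone brought 9 of those 14 to the level minimum, which fixed their direction. The 72 antisense genes had a median of 0.44, with 14 higher, 7 of which reached the level minimum only through the high dose, and 8 lower. Since the counting is not stated to use strand, reads of antisense genes cannot be told apart from those of the opposite gene. The 40 genes annotated as processed transcripts had a median of 0.68, with 10 higher (1 of them only through the high dose) and 0 lower, against -0.02 in 9472 protein-coding genes. Among all genes at the high dose 4.94% were at least 2-fold higher and 11.2% at least 2-fold lower.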
